A study of Homo sapiens with 45 samples.

Results

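Messenger RNA of human cells on day 12 of a motor neuron differentiation was compared, gene by gene, with that on day 10. The comparison used 6 libraries, 3 per day, out of 45 human libraries from 15 days. The cells were of H9, a widely used line of human embryonic stem cells. They had first been made into neuromesodermal progenitors, a cell type of the tail bud from which spinal cord and paraxial mesoderm arise. On both days the cells were in the same medium on fibronectin, with 100 nM retinoic acid (RA), a posterior and spinal patterning signal, and 500 nM SAG, an agonist of Smoothened that turns on the Hedgehog pathway. Both agents had been present since replating on day 0, when a ROCK inhibitor was also given until day 2. The medium was changed every other day, and days 12 and 10 are both even. No untreated culture of the same age was among these samples, so the comparison is one of time in culture in 1 cell line. The p-values use a spread within days that was estimated over all 45 libraries, not over the 6 alone. Replicates are labelled as bioreps with no further detail, so that spread may be technical.

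In the ventral midline of the neural tube the floor plate secretes Sonic hedgehog and netrin, carries cilia, and lies next to the p3 progenitors that form V3 interneurons. Motor neuron progenitors lie further dorsal and form motor neurons early, after which the remaining progenitors turn to making glia. The RNA-binding proteins LIN28A and LIN28B block maturation of the let-7 microRNAs, and falling LIN28 with rising let-7 is a known clock of developing tissues. The comparison asks what changes late in the protocol, over a step of 2 days.

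The day 12 libraries held 33215150, 30344246 and 31283439 counts, and the day 10 libraries 33044549, 32343838 and 33036985. The mitochondrial share of counts was 3.37% to 3.63% on day 12, against 2.75% to 3.37% on day 10. The 1000 most variable genes of the 6 libraries put the days apart on the first principal component (32.3% of the variance), where the day 12 libraries lay at 17.1, 17.1 and 14.5 and the day 10 libraries at -25.0, -6.3 and -17.3. Day 10 replicate 2 thus lay nearest to day 12. The labels give neural progenitor as the cell identity, and markers of both progenitors and neurons were present. Summed over 8 markers, progenitor genes held 5159 to 5886 CPM (counts scaled to normalised libraries of 1000000) on day 12 and 5717 to 6361 on day 10, and 5 neuron markers held 2895 to 3835 and 3038 to 4069 CPM. Most of the progenitor sum came from the filament genes VIM (3000 to 3768 CPM over the 6 libraries) and NES (1458 to 1988). SOX1 was at 25.0 to 35.7 CPM and SOX2 at 197 to 254. Markers of neural crest, mesoderm and muscle, endothelium, blood, endoderm, surface epithelium and pluripotent cells (POU5F1 and NANOG) each summed to at most 2.17 CPM in any of the 6 libraries. Some longer gene lists held more: pluripotency 49.1 to 65.4 CPM, mesoderm and muscle 20.9 to 35.2, and endothelium and blood 7.45 to 12.5. Nearly all of the pluripotency sum came from the gene DPPA4. The neural crest, endoderm and surface epithelium lists held at most 2.86 CPM. In bulk RNA, fewer cells of a type and less RNA per cell cannot be told apart.

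Of 19436 genes tested, 945 were higher and 1214 lower on day 12 than on day 10 (edgeR quasi-likelihood test, adjusted p under 0.05 by Benjamini-Hochberg). That is 11.1% of the genes tested, 4.86% higher and 6.25% lower. Among the called genes the rises were larger than the falls, but the sizes were not compared at like expression. Of the called genes, 462 rises and 873 falls were protein-coding, at 10 CPM or more on the higher day, with no overlap between days. The median size of the called log2 changes was 0.51 among genes that rose and 0.25 among genes that fell, and 181 rose and 53 fell at least 2-fold, 0.931% and 0.273% of the genes tested. For 1875 of the 2159 called genes (86.8%) the libraries of the days did not overlap, as for 20.2% of all genes tested. The counts depended on single libraries. They were 574 higher and 682 lower without day 12 replicate 1, 540 and 632 without day 10 replicate 1, and 577 and 594 without day 10 replicate 3. Without day 10 replicate 2 they were 1126 and 1499. Those fits still took the spread from all days. From the 6 libraries of days 10 and 12 alone the counts were 228 higher and 74 lower.

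The step from day 11 to day 13 has the same length and shares no library with the step from day 10 to day 12. The 2 steps overlap in time and were tested in the same fit. There 1196 genes were higher on day 13 (6.15% of the genes tested) and 683 lower (3.51%), 9.67% in all. Of the 945 genes that rose by day 12, 627 also rose by day 13, which is 66.3% of the day 12 rises and 52.4% of the day 13 rises. Of the 1214 that fell, 414 fell in both, 34.1% of the day 12 falls and 60.6% of the day 13 falls. The sign was shared by 907 of the 945 and 1161 of the 1214, and 1 gene was called in opposite directions. How many of all genes tested shared the sign was not counted. A test of the difference between the 2 changes called 2 genes (0.0103%), HOXB3 and HOXB4, with 961 genes at an unadjusted p under 0.05 (4.94%).

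**Figure D1:**
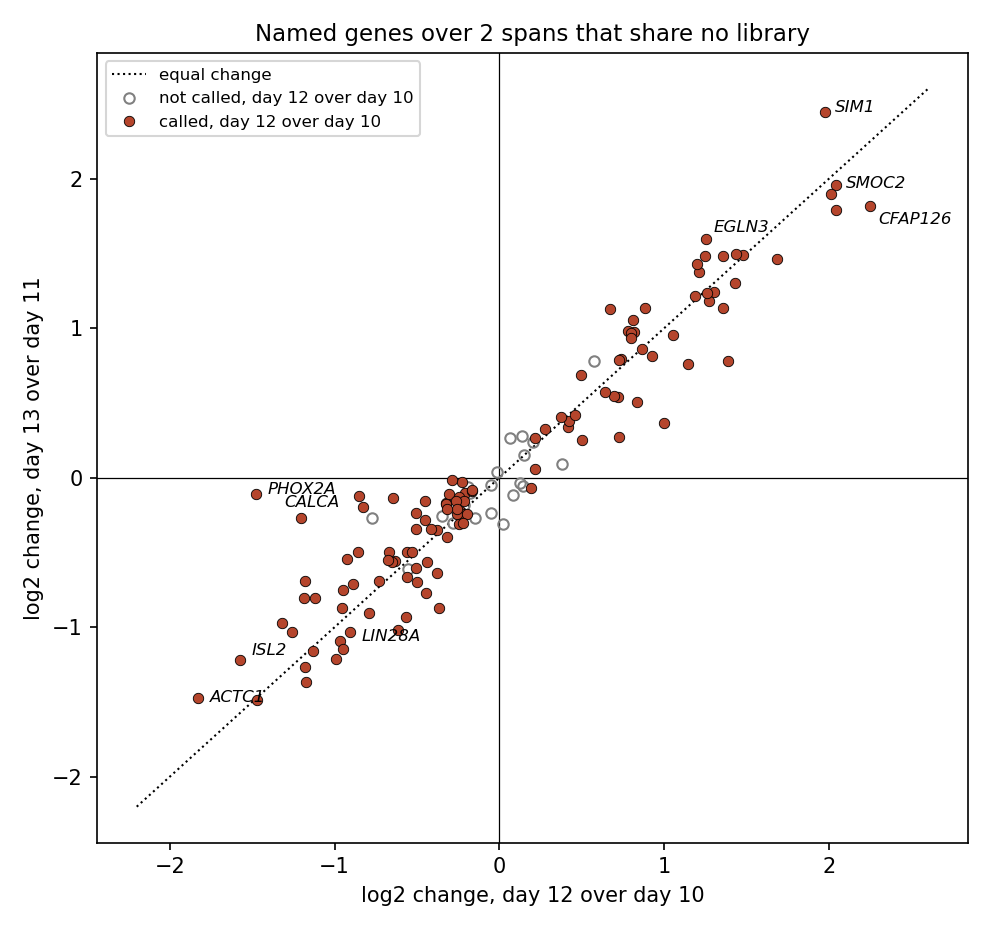
Log2 change of day 12 over day 10 (horizontal axis) against that of day 13 over day 11 (vertical axis) for the 138 genes named by rule, each a point, filled where called between days 12 and 10, with a dotted line of equal change. Of the 117 called genes, 116 have the same sign in both steps and lie along the line, and 1, HOXB9, does not.

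The genes of the floor plate and of the neighbouring p3 domain rose together. Of 10 tested, 8 rose and none fell, against 4.86% of all genes, with a median log2 change of 0.73 against -0.0045 over all genes tested. Changes are given as log2 of day 12 over day 10, ± the standard error of the fit. From day 11 to day 13 the count was also 8 and none. For this list and those below, counts called between days 12 and 10 stand beside 4.86% of all genes higher and 6.25% lower. The lists were chosen with earlier results of these data known, so these shares are a description and not a test. SHH, the ligand that patterns the ventral neural tube (ENSG00000164690, chromosome 7, 155799986 to 155812273 in GRCh38), had 111, 113 and 94.3 CPM on day 12, against 34.7, 57.3 and 47.8 CPM on day 10. Every day 12 library lay above every day 10 library, a log2 change of 1.19 ± 0.21, adjusted p = 0.000198, and the change from day 11 to day 13 was 1.22 ± 0.20.

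FOXA2, the forkhead factor that specifies floor plate, had 19.6, 19.6 and 18 CPM on day 12, against 6.95, 12.4 and 9.94 CPM on day 10 (0.97 ± 0.21, adjusted p = 0.0024). Day 10 replicate 2 was the highest day 10 library and day 10 replicate 1 the lowest. The secreted guidance cue NTN1 (netrin-1) had 681, 672 and 566 CPM on day 12, against 396, 463 and 432 CPM on day 10 (0.57 ± 0.13, adjusted p = 0.0033), and SPON1, the gene of F-spondin, an adhesive protein first known from floor plate, had 1109.9, 964 and 989.8 CPM on day 12, against 521, 736 and 648 CPM on day 10 (0.69 ± 0.15, adjusted p = 0.0034). The groups did not overlap for either. The calls of SHH, FOXA2, NTN1 and SPON1 held whichever of the 6 libraries was left out.

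Factors of the p3 domain were low and rose less firmly. NKX2-8 had 9.31, 9.19 and 7.99 CPM on day 12, against 4, 7.26 and 4.31 CPM on day 10 (0.77 ± 0.19, adjusted p = 0.0078). NKX2-8 lost its call without day 10 replicate 1 (0.075) or 3 (0.066), adjusted p in brackets. NKX2-2, the factor that defines p3, had 3.3, 3.13 and 3.66 CPM on day 12, against 1.84, 2.89 and 1.87 CPM on day 10 (0.61 ± 0.21, adjusted p = 0.049). NKX2-2 lost its call without day 12 replicate 1 (0.102), 2 (0.059) or 3 (0.14) or day 10 replicate 1 (0.204) or 3 (0.21). SIM1, the factor of V3 neurons, had 0.642, 0.319 and 0.366 CPM on day 12, against 0.0301, 0.122 and 0.181 CPM on day 10 (1.98 ± 0.59, adjusted p = 0.021). SIM1 lost its call without day 12 replicate 1 (0.16) or day 10 replicate 1 (0.13). FOXA1 had 136, 153 and 140.4 CPM on day 12, against 108, 103 and 130.5 CPM on day 10 and was not called (0.33 ± 0.13, adjusted p = 0.102). LMX1A had 1 count over the 6 libraries. The long noncoding RNA LINC00261, which lies beside FOXA2 and was picked after its values were seen, had 37.5, 36.6 and 33.9 CPM on day 12, against 10.1, 20.03 and 15 CPM on day 10 (1.26 ± 0.33, adjusted p = 0.0099). LINC00261 lost its call without day 10 replicate 1 (0.081).

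**Figure D2:**
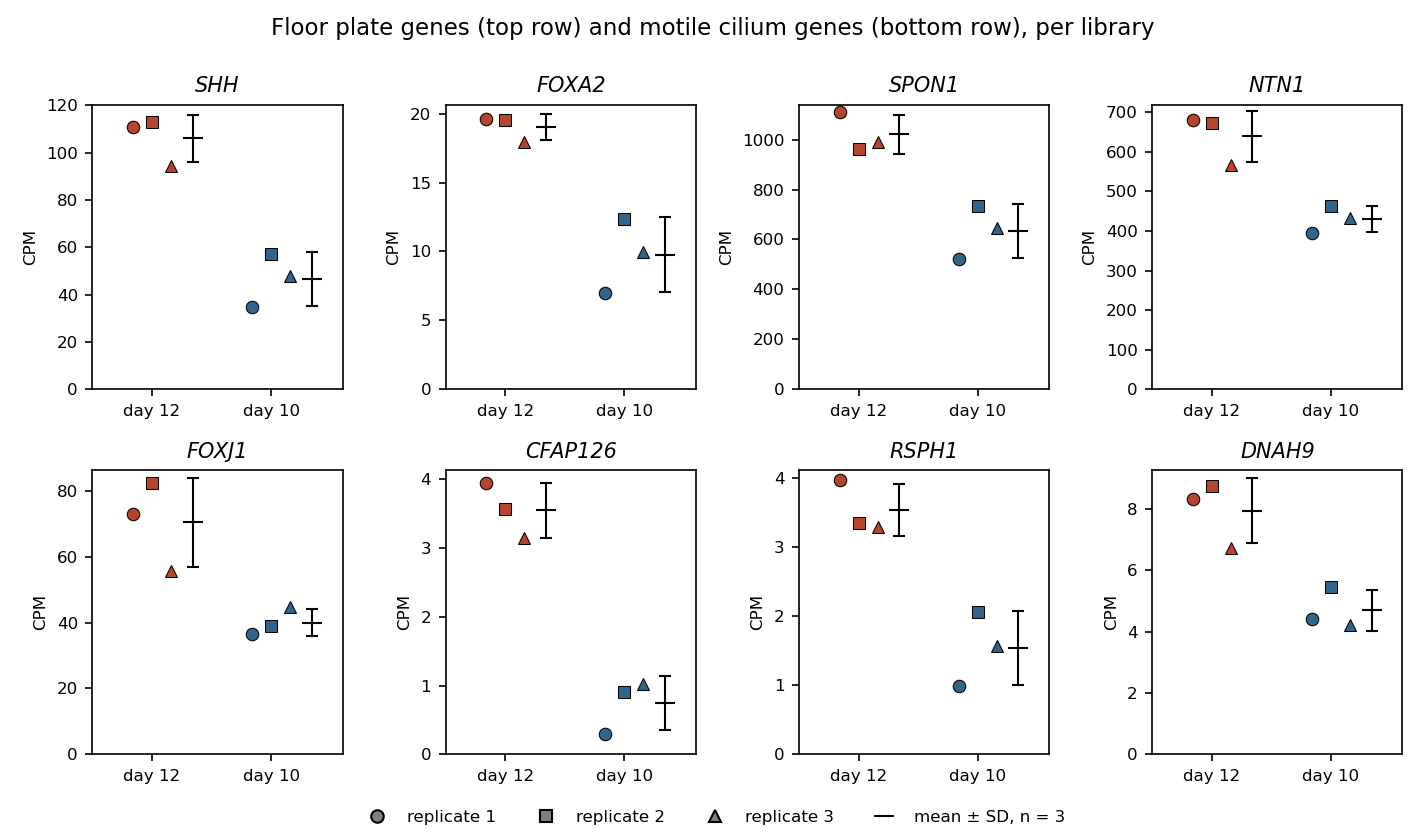
CPM per library (vertical axes, from 0) on day 12 (left) and day 10 (right) of 4 floor plate genes (top row) and 4 motile cilium genes (bottom row), with symbols for the replicates and bars for mean ± SD (n = 3). In each panel the 3 day 12 libraries lie above the 3 day 10 libraries, SHH at 94.3 to 113 CPM on day 12 and 34.7 to 57.3 on day 10.

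Genes of motile cilia rose with them. Of 12 tested, 8 rose and none fell, with a median log2 change of 0.79, and 10 rose from day 11 to day 13. FOXJ1, the master factor of motile cilia, which the floor plate also expresses (ENSG00000129654, chromosome 17, 76136333 to 76141299), had 73.1, 82.3 and 55.8 CPM on day 12, against 36.6, 38.9 and 44.6 CPM on day 10 (0.81 ± 0.18, adjusted p = 0.0029). CFAP126, a protein of the cilium base, had 3.94, 3.57 and 3.14 CPM on day 12, against 0.301, 0.912 and 1.02 CPM on day 10 (2.25 ± 0.36, adjusted p = 4.6e-05). SPAG6, a protein of the central pair of microtubules, had 1.84, 2.17 and 1.65 CPM on day 12, against 0.391, 0.547 and 0.452 CPM on day 10 (2.01 ± 0.45, adjusted p = 0.0025). The 3 libraries of day 12 lay above those of day 10 for all 3 genes, though CFAP126 and SPAG6 were near or below 4 CPM on both days.

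RSPH1, a radial spoke protein, had 3.97, 3.35 and 3.29 CPM on day 12, against 0.993, 2.07 and 1.57 CPM on day 10 (1.20 ± 0.23, adjusted p = 0.00048). PIFO had 13.7, 13.9 and 12.6 CPM on day 12, against 5.93, 6.29 and 9.49 CPM on day 10 (0.89 ± 0.14, adjusted p = 3.4e-05), and DNAH9, an outer arm dynein, had 8.35, 8.77 and 6.74 CPM on day 12, against 4.42, 5.47 and 4.22 CPM on day 10 (0.76 ± 0.15, adjusted p = 0.00072). These calls and those of the 3 genes before them held with each library left out. The RFX factors, which bind the X-box motif of ciliary promoters, rose less: RFX2 had 34.2, 32.4 and 27.8 CPM on day 12, against 23.6, 26.4 and 25.4 CPM on day 10 (0.32 ± 0.10, adjusted p = 0.032) and RFX3 had 88.3, 85.6 and 101 CPM on day 12, against 68.2, 79.3 and 82.8 CPM on day 10 (0.26 ± 0.075, adjusted p = 0.021). The RFX2 call was lost without day 12 replicate 1 (0.17) or 2 (0.084) or day 10 replicate 1 (0.14) or 3 (0.085), and that of RFX3 without day 12 replicate 3 (0.15) or day 10 replicate 1 (0.18). CFAP45 (0.77 ± 0.27, adjusted p = 0.053) and TEKT1 (1.39 ± 0.68, adjusted p = 0.202) were not called by day 12 and rose from day 11 to day 13, CFAP45 by 1.27 ± 0.23, adjusted p = 0.00014, and TEKT1 by 1.57 ± 0.47, adjusted p = 0.024. DNAH11 and DNAH5 were called in neither step, and DNAH5 alone had a negative change (-0.60 ± 0.21, adjusted p = 0.054). CFAP126, CFAP45, TEKT1, RSPH1, RFX2 and DNAH11 overlap other genes in the annotation, and the strand used for counting is not given in the sources used here.

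The ciliary promoters show where RFX factors could be looked for. Windows of 250 bases before the start were matched for 8 of the 12 genes (RefSeq, GRCh38.p14), and were searched on both strands for the X-box half-site GTTGCC (reverse complement GGCAAC) and for the longer X-box, GTTNCC followed after any 2 bases by GGNAAC, which can hold it. The half-site stood in 4 of the 8, CFAP126 and SPAG6, which rose, and CFAP45 and TEKT1, which were not called, and in 10.2% of 35116 promoter windows. The windows of DNAH9 and RFX3, which also rose, held none. The longer motif stood in CFAP45 alone of the 8, and in 0.441% of windows. The 100 bases before the start of 3 of them follow, 5′ to 3′ on the gene's strand, with half-sites in capitals. They lie at chr1:161367877-161367976 (CFAP126, minus strand), chr10:22345396-22345495 (SPAG6, plus strand) and chr1:159900166-159900265 (CFAP45, minus strand). A match is a description of letters and not of binding.
CFAP126: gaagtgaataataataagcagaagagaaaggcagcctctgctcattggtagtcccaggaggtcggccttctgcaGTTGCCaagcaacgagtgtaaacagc
SPAG6: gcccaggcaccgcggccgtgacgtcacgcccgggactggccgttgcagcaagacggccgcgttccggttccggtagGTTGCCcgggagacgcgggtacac
CFAP45: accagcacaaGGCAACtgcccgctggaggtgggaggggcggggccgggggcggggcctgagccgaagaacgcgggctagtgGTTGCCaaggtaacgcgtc

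Genes of radial glia and of the step to gliogenesis rose in part. Of 19 tested, 6 rose and none fell, with a median log2 change of 0.15, and 7 rose from day 11 to day 13. Called or not, 11 changes were above 0 and 8 below. The summed list held 1387 to 1463 CPM on day 12 and 1409.5 to 1689 on day 10. The nuclear factor I gene NFIA, which opens the gliogenic phase of the spinal cord, had 19.7, 25.3 and 24.7 CPM on day 12, against 12.9, 11 and 16.6 CPM on day 10 (0.78 ± 0.14, adjusted p = 0.00036). It had been at 2.46 ± 0.468 CPM on day 8 and stood at 41.4 ± 3.95 on day 14. Its relatives NFIB (0.72 ± 0.14, adjusted p = 0.00042) and NFIX (0.86 ± 0.22, adjusted p = 0.0088) also rose, and NFIX lost its call without day 10 replicate 2 (0.061). NFIA, NFIB and NFIX are counted again below, among factors that mark the birth time of neurons. With TPM (a transcript abundance scaled by length) in place of counts, NFIB (adjusted p = 0.069, limma) and NFIX (adjusted p = 0.22, limma) were not called.

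SLC1A3, the glial glutamate transporter GLAST, had 114, 117 and 109 CPM on day 12, against 56.6, 67.8 and 70.7 CPM on day 10 (0.80 ± 0.14, adjusted p = 0.00018), with no overlap. FABP7, a lipid-binding protein of radial glia that was counted in the neural progenitor list, had 47.3, 44 and 42 CPM on day 12, against 21.9, 34.2 and 27.6 CPM on day 10 (0.67 ± 0.10, adjusted p = 1.9e-05), and its change from day 11 to day 13 was 1.13 ± 0.10. AGT, angiotensinogen, which astrocytes express, had 3.76, 3.64 and 3.29 CPM on day 12, against 0.963, 1.85 and 1.27 CPM on day 10 (1.39 ± 0.35, adjusted p = 0.0074). AGT lost its call without day 10 replicate 1 (0.058). S100B, a calcium-binding protein of glia, had 1.55, 1.18 and 0.915 CPM on day 12, against 0.511, 0.395 and 0.512 CPM on day 10 (1.36 ± 0.29, adjusted p = 0.0013). Defining astrocyte genes stayed near 0: GFAP, AQP4 and ALDH1L1 were each below 1 CPM in all 6 libraries, and the 4 astrocyte markers together held 1.40 to 2.39 CPM on day 12 and 0.99 to 1.19 on day 10. SOX9, a factor of gliogenic progenitors, had 75.5, 65.1 and 77.8 CPM on day 12, against 66.3, 72 and 59 CPM on day 10 and was not called (0.15 ± 0.081, adjusted p = 0.27). TNC, the matrix protein tenascin C, had 234, 296 and 246 CPM on day 12, against 579, 241 and 505 CPM on day 10 and was not called either (-0.77 ± 0.30, adjusted p = 0.098), with day 10 replicate 2 inside the range of day 12. Among 9 oligodendrocyte genes 1 fell, with 6.25% of all genes lower. It was PDGFRA (-0.64 ± 0.22, adjusted p = 0.049), the receptor of oligodendrocyte precursors. That call was lost without day 12 replicate 1 (0.203) or 2 (0.11) or day 10 replicate 1 (0.13), 2 (0.054) or 3 (0.15).

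Ranked by log2 change, the top 12 of the called protein-coding genes, among those at 10 CPM or more on the higher day and with no overlap between the days, began with SMOC2, a matricellular calcium-binding protein (ENSG00000112562, chromosome 6, 168441151 to 168673445). It had 15.5, 13.8 and 13.5 CPM on day 12, against 3.22, 3.34 and 3.83 CPM on day 10, a log2 change of 2.04 ± 0.20, adjusted p = 2.6e-08. SULF1, an extracellular sulfatase that edits heparan sulfate and tunes Hedgehog signalling in the ventral neural tube, had 536, 485 and 481 CPM on day 12, against 93.1, 147 and 125 CPM on day 10 (2.04 ± 0.17, adjusted p = 2.1e-09). SULF1 had averaged 28.4 ± 4.34 CPM on day 8 and reached 1118 ± 129.99 on day 14, so day 12 lay within a rise that ran on.

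MLC1, a membrane protein of astrocyte endfeet, had 19.6, 14.3 and 17.4 CPM on day 12, against 4.63, 6.87 and 4.49 CPM on day 10 (1.68 ± 0.17, adjusted p = 6.6e-08). CNTN3, a contactin adhesion protein, had 11.8, 9.92 and 12.1 CPM on day 12, against 2.53, 5.14 and 4.49 CPM on day 10 (1.48 ± 0.22, adjusted p = 1.6e-05). TACR1, the receptor of substance P, had 76, 62.9 and 71.9 CPM on day 12, against 20.7, 41.6 and 24.9 CPM on day 10 (1.27 ± 0.16, adjusted p = 1.2e-06), and IGFBP5, which binds insulin-like growth factors, had 714, 734 and 624 CPM on day 12, against 252, 326 and 319 CPM on day 10 (1.21 ± 0.16, adjusted p = 4.6e-06). In TACR1 and CNTN3 day 10 replicate 2 was the day 10 library nearest to day 12. DACT2, a modulator of Wnt and TGF-beta signalling, had 36.2, 40.7 and 31 CPM on day 12, against 13.8, 13.5 and 14.7 CPM on day 10 (1.36 ± 0.18, adjusted p = 6.7e-06), and A2M, a protease inhibitor, had 20.6, 18.6 and 18.3 CPM on day 12, against 7.94, 8.15 and 7.26 CPM on day 10 (1.30 ± 0.18, adjusted p = 4.6e-06).

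CFC1, a co-receptor of Nodal, had 47.3, 45.7 and 36 CPM on day 12, against 12.7, 18.8 and 16.2 CPM on day 10 (1.44 ± 0.22, adjusted p = 2.8e-05). A near-identical copy, CFC1B, can share its reads, so its level is uncertain. EGLN3, a prolyl hydroxylase that marks HIF for degradation, had 19.96, 19.9 and 18.3 CPM on day 12, against 7.1, 9.45 and 7.86 CPM on day 10 (1.25 ± 0.21, adjusted p = 0.00013). C8orf34 had 15.1, 13 and 11.7 CPM on day 12, against 3.82, 7.72 and 5.09 CPM on day 10 (1.26 ± 0.32, adjusted p = 0.0078). C8orf34 lost its call without day 10 replicate 1 (0.065). SHH was the last of the 12. All 12 also rose from day 11 to day 13. The imprinted noncoding RNA H19, which was picked after its values were seen, had 821, 1124 and 757 CPM on day 12, against 492, 489 and 669.8 CPM on day 10 (0.71 ± 0.18, adjusted p = 0.0087). H19 lost its call without day 12 replicate 2 (0.078) or day 10 replicate 1 (0.058).

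Genes of the LIN28 and let-7 axis fell. Of 9 tested, 6 fell and none rose, against 6.25% of all genes that fell, and the median log2 change was -0.35. From day 11 to day 13, 7 fell. LIN28A, which keeps early progenitors in an immature state (ENSG00000131914, chromosome 1, 26410778 to 26429722), had 54.4, 51.2 and 54.9 CPM on day 12, against 96.1, 107 and 98.2 CPM on day 10, a log2 change of -0.91 ± 0.068, adjusted p = 1.3e-11. The libraries within a day lay close together and far from those of the other. LIN28A stood at 267 ± 13 CPM on day 8 and at 29.1 ± 0.617 on day 14. Its relative LIN28B had 43.5, 43.5 and 54.5 CPM on day 12, against 66.2, 69.5 and 72.8 CPM on day 10 (-0.56 ± 0.074, adjusted p = 2.3e-06).

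TRIM71, an RNA-binding ubiquitin ligase and, as LIN41, a let-7 target across animals, had 60.8, 53.6 and 68.7 CPM on day 12, against 92.1, 110.1 and 101 CPM on day 10 (-0.73 ± 0.079, adjusted p = 6.6e-08). PRTG, protogenin, a receptor of early neural and caudal progenitors, had 87.1, 83 and 105 CPM on day 12, against 129.9, 159 and 148 CPM on day 10 (-0.67 ± 0.11, adjusted p = 5.3e-05). IGF2BP1, an mRNA-binding protein of fetal tissue, had 662, 666 and 601 CPM on day 12, against 801, 794 and 855 CPM on day 10 (-0.35 ± 0.038, adjusted p = 6.9e-08), and the chromatin protein HMGA1 had 725, 759.9 and 651 CPM on day 12, against 882, 869 and 835 CPM on day 10 (-0.28 ± 0.05, adjusted p = 0.00025). All 6 calls held with each library left out and with TPM in place of counts. HMGA2 had 208, 224 and 276 CPM on day 12, against 242, 237 and 255 CPM on day 10 and was not called (-0.052 ± 0.063, adjusted p = 0.67), while it fell from day 11 to day 13 (-0.24 ± 0.063, adjusted p = 0.0098). IGF2BP2 (-0.089 ± 0.038, adjusted p = 0.14) and IGF2BP3 (0.024 ± 0.039, adjusted p = 0.76) were not called in either step.

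MIR100HG, the noncoding host transcript of let-7a-2, miR-100 and miR-125b-1 (chromosome 11, 122028327 to 122556721, minus strand, GRCh38), had 16.2, 16.7 and 20.4 CPM on day 12, against 11.3, 10.8 and 11.7 CPM on day 10 (0.66 ± 0.10, adjusted p = 3.6e-05), with no overlap. It was picked after its values were seen. MIR99AHG, which hosts miR-99a, let-7c and miR-125b-2, had 20.05, 19.3 and 27.6 CPM on day 12, against 20.4, 22.3 and 19.97 CPM on day 10 and was not called (0.095 ± 0.10, adjusted p = 0.63). The libraries were of polyadenylated RNA, so mature microRNAs were not measured. The mature sequences within MIR100HG (RefSeq, GRCh38.p14, same strand as the host) show the seeds, bases 2 to 8 in capitals, and let-7c has the seed of let-7a.
hsa-let-7a-5p: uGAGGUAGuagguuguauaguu
hsa-miR-125b-5p: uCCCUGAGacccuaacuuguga
hsa-miR-100-5p: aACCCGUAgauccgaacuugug

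The reverse complement of the let-7 seed, CTACCTC, stood in an annotated 3′ UTR (GENCODE 29, coding transcripts) of all 9 list members, the 6 that fell and the 3 that did not, and of 11.6% of the 14979 coding genes tested that have one. The 9 are mostly known let-7 targets with long 3′ UTRs, a median of 4549 bases against 1463 over all those genes, so the count is a description only. LIN28B, HMGA2 and IGF2BP1 each had 4 matches, TRIM71 had 6, PRTG had 2 and the others 1. The reverse complement of the miR-125b seed, CTCAGGG, stood in 4 of the 9, LIN28A, LIN28B, TRIM71 and PRTG, and in 17.3% of all. A let-7 match from each of 4 genes and the miR-125b match of LIN28A follow, each with the 14 bases before it and 1 after, the match in capitals, at chr1:26427349-26427370 (LIN28A, let-7), chr1:26427245-26427266 (LIN28A, miR-125b), chr6:105078813-105078834 (LIN28B), chr3:32891969-32891990 (TRIM71) and chr12:65963299-65963320 (HMGA2), all on the plus strand of GRCh38. HMGA2 is shown as a member that was not called.
LIN28A, let-7: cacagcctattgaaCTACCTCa
LIN28A, miR-125b: ggtacatgagcaatCTCAGGGa
LIN28B, let-7: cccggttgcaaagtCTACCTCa
TRIM71, let-7: acattgcttaagtcCTACCTCa
HMGA2, let-7: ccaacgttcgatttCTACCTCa

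**Figure D3:**
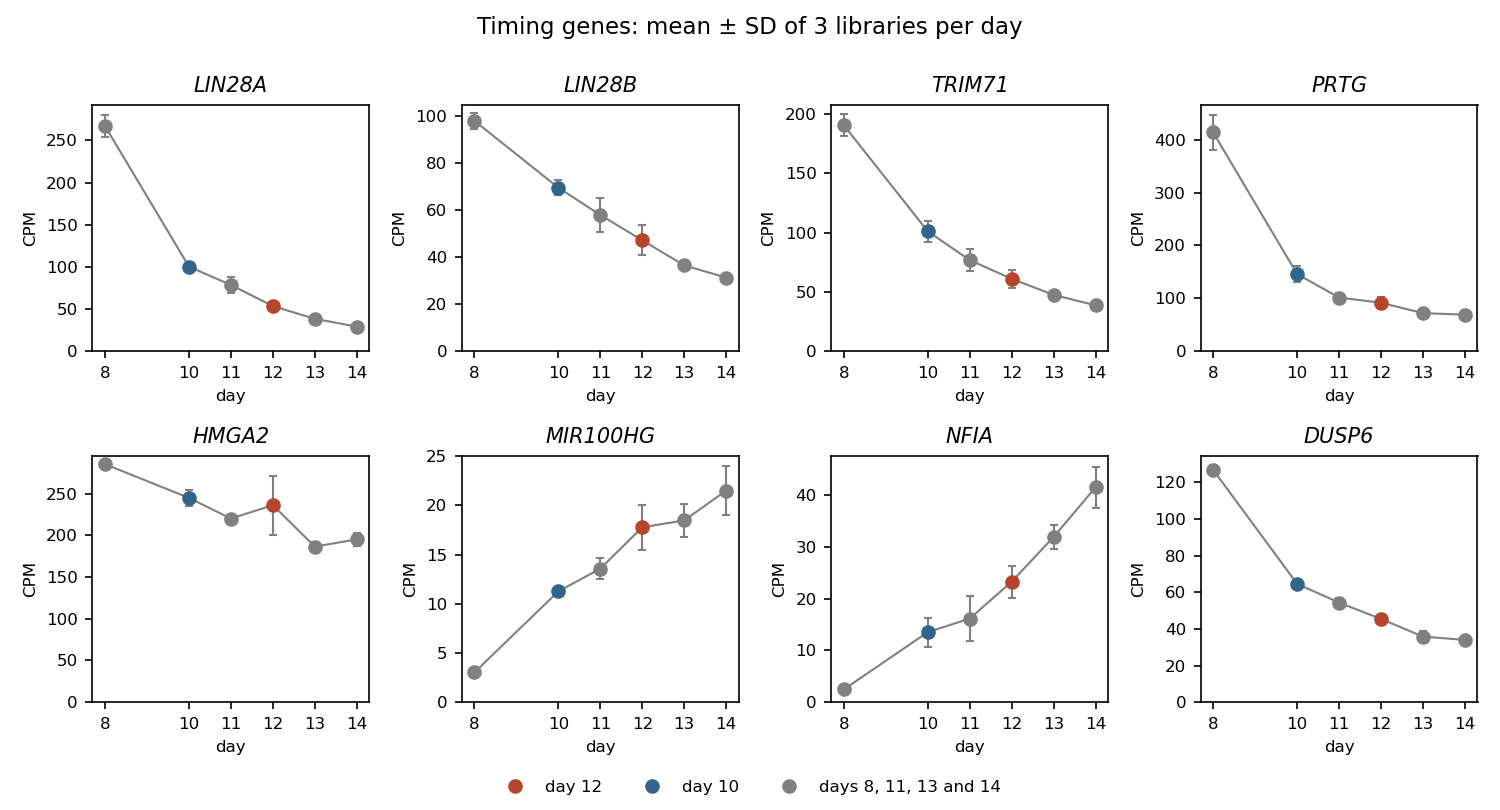
Mean ± SD of CPM in 3 libraries per day (vertical axes, from 0) over days 8, 10, 11, 12, 13 and 14 (horizontal axes; day 9 is not plotted) for LIN28A, LIN28B, TRIM71, PRTG, HMGA2, MIR100HG, NFIA and DUSP6. LIN28A, LIN28B, TRIM71, PRTG and DUSP6 are lower at each plotted day than at the one before, MIR100HG and NFIA are higher at each, and HMGA2 turns up at day 12, where its libraries spread most.

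The 12 largest falls were chosen by the same rule as the rises (10 CPM or more on the higher day, no overlap between the days), and LIN28A was one of them. Several lay near the day 12 level in day 10 replicate 2. ACTC1, cardiac alpha-actin, an actin of early muscle and of other embryonic cells (ENSG00000159251, chromosome 15, 34788095 to 34795726), had 13, 16.7 and 17.3 CPM on day 12, against 85, 22.5 and 59.3 CPM on day 10 (-1.83 ± 0.38, adjusted p = 0.0018). COL8A1, a short-chain collagen, had 8.03, 8.29 and 8.66 CPM on day 12, against 30.7, 12.2 and 26.3 CPM on day 10 (-1.47 ± 0.33, adjusted p = 0.0031). For both, day 10 replicate 2 lay close above the day 12 libraries and far below the other day 10 libraries, and both calls held with each library left out. From the 6 libraries alone neither was called (edgeR, adjusted p = 0.16 for ACTC1 and 0.084 for COL8A1). TAGLN, a smooth muscle protein that binds actin and was picked after its values were seen, had 139, 192 and 156 CPM on day 12, against 394, 162 and 321 CPM on day 10 and was not called (-0.85 ± 0.36, adjusted p = 0.14). ACTA2, smooth muscle actin, picked likewise, had 61.4, 78.9 and 62.4 CPM on day 12, against 107, 59.6 and 92.2 CPM on day 10 (-0.35 ± 0.22, adjusted p = 0.33). In both, day 10 replicate 2 lay within or below the day 12 range. The 5 mesoderm and muscle markers summed to 1.15 to 1.71 CPM on day 12 and 1.26 to 1.75 on day 10, with MYOD1 at 0 in all 6 libraries. The 9 tested genes of the longer mesoderm and muscle list summed to 22.9, 31.9 and 24.3 CPM on day 12. On day 10 they summed to 35.2, 20.9 and 34.2 CPM, lowest in day 10 replicate 2.

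FN1, fibronectin, had 264, 318 and 272 CPM on day 12, against 679, 348 and 593 CPM on day 10 (-0.92 ± 0.24, adjusted p = 0.012). FN1 lost its call without day 12 replicate 1 (0.06) or day 10 replicate 1 (0.099) or 3 (0.059), and the change from day 11 to day 13 was not called (-0.54 ± 0.24, adjusted p = 0.17). Fibronectin also coated the dishes, as protein. ITGA4, an integrin subunit that binds fibronectin, had 17.4, 19.4 and 21.3 CPM on day 12, against 52.9, 27.1 and 51.2 CPM on day 10 (-1.18 ± 0.31, adjusted p = 0.011), lost without day 12 replicate 1 (0.0604) or day 10 replicate 1 (0.071) or 3 (0.066). CLDN6, an early embryonic claudin, had 8.61, 12.1 and 10.3 CPM on day 12, against 30.7, 13.9 and 25.6 CPM on day 10 (-1.19 ± 0.27, adjusted p = 0.0038), lost without day 10 replicate 1 (0.0501). ARSI, a sulfatase, had 5.69, 7.31 and 5.09 CPM on day 12, against 19.2, 7.51 and 16.5 CPM on day 10 (-1.26 ± 0.29, adjusted p = 0.0045), lost without day 10 replicate 1 (0.057). UBD, a ubiquitin-like protein, had 9.08, 10.8 and 11 CPM on day 12, against 26.9, 14.3 and 19 CPM on day 10 (-0.97 ± 0.25, adjusted p = 0.0083), lost without day 12 replicate 1 (0.054) or day 10 replicate 1 (0.11). In each of these 5 genes day 10 replicate 2 was the lowest day 10 library. SVEP1, a large matrix protein, had 6.62, 8.49 and 7.72 CPM on day 12, against 16.6, 10.3 and 17 CPM on day 10 (-0.95 ± 0.20, adjusted p = 0.0022), again lowest in that library, and its call held with each library left out.

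In COL1A2, MECOM and NID1 day 10 replicate 2 was also the lowest day 10 library. It lay nearer to the other day 10 libraries than to those of day 12. NID1 was not among the 12 largest falls. COL1A2, a chain of type I collagen, had 4.96, 4.69 and 3.39 CPM on day 12, against 12.2, 9.3 and 11 CPM on day 10 (-1.32 ± 0.24, adjusted p = 0.00035). MECOM, a zinc finger factor of the motor column list, had 18.7, 21.8 and 20.1 CPM on day 12, against 41.8, 33.8 and 41.4 CPM on day 10 (-0.95 ± 0.10, adjusted p = 4.3e-08). The basement membrane protein NID1, nidogen-1, had 78.8, 82.9 and 73.7 CPM on day 12, against 108, 102 and 119 CPM on day 10 (-0.48 ± 0.051, adjusted p = 4.3e-08). These 3 calls held with each library left out. LEFTY2, a secreted inhibitor of Nodal, had 9.54, 15.5 and 9.46 CPM on day 12, against 27.9, 17.6 and 32.1 CPM on day 10 (-1.18 ± 0.28, adjusted p = 0.0063), with day 10 replicate 2 nearest to day 12. LEFTY2 lost its call without day 10 replicate 3 (0.056).

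Of 20 genes for collagens, laminins and other matrix proteins, 8 fell and none rose, with a median log2 change of -0.38, and 2 fell and 1 rose from day 11 to day 13. Besides COL1A2, NID1 and FN1 these were the type IV collagen chains COL4A1 and COL4A2, COL5A2, and the laminin chains LAMA1 and LAMC1. COL4A1 had 171, 208 and 167 CPM on day 12, against 312, 189.5 and 273 CPM on day 10 (-0.51 ± 0.16, adjusted p = 0.0396), and COL5A2 had 462, 534 and 440.03 CPM on day 12, against 744, 497 and 758 CPM on day 10 (-0.48 ± 0.15, adjusted p = 0.041). Day 10 replicate 2 lay within the day 12 range in both. COL4A1 lost its call without day 12 replicate 1 (0.15) or 3 (0.13) or day 10 replicate 1 (0.26) or 3 (0.15), and COL5A2 without day 12 replicate 1 (0.13) or 3 (0.13) or day 10 replicate 1 (0.19) or 3 (0.22). Of the 8, only COL1A2 and NID1 kept the call whichever library was left out, and 3 of the 8 were called with TPM. The other 6 lost it without at least 1 of day 12 replicates 1 and 3 and day 10 replicates 1 and 3, at adjusted p-values of up to 0.263 (edgeR).

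**Figure D4:**
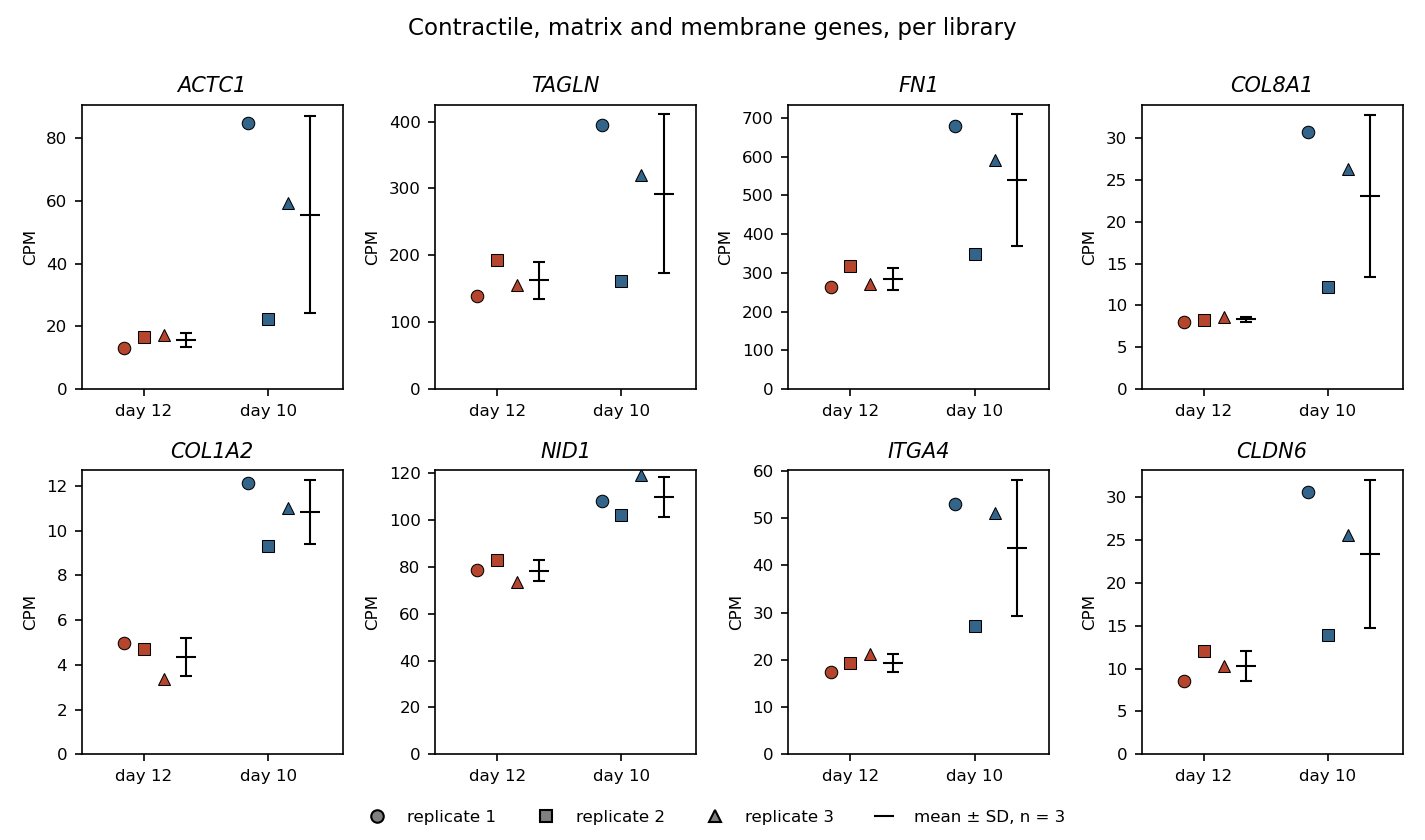
CPM per library (vertical axes, from 0) on day 12 (left) and day 10 (right) of 8 contractile, matrix and membrane genes, with symbols for the replicates and bars for mean ± SD (n = 3). Day 10 replicate 2 (squares) lies near the day 12 libraries for ACTC1, TAGLN, FN1, COL8A1, ITGA4 and CLDN6. For COL1A2 and NID1 it is the lowest day 10 library but lies nearer to the other day 10 libraries.

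The called progenitor genes went both ways. Of 13 neural progenitor genes, 2 rose and 3 fell, beside 4.86% of all genes higher and 6.25% lower. The median log2 change was -0.097, with 3 changes above 0 and 10 below. SOX1 had 25, 25.1 and 25.6 CPM on day 12, against 31.3, 35.7 and 31.4 CPM on day 10 (-0.38 ± 0.079, adjusted p = 0.0012), and the intermediate filament gene NES, nestin, had 1669, 1577 and 1458 CPM on day 12, against 1948, 1988 and 1790.5 CPM on day 10 (-0.28 ± 0.059, adjusted p = 0.0012). HES5, a Notch-driven repressor, had 10.8, 10.1 and 10.5 CPM on day 12, against 14.3, 17.9 and 12.2 CPM on day 10 (-0.50 ± 0.16, adjusted p = 0.042), and SOX2 had 245, 242 and 254 CPM on day 12, against 197, 227 and 215 CPM on day 10 (0.22 ± 0.071, adjusted p = 0.042). The SOX1, NES and FABP7 calls held with each library left out. From the 6 libraries alone none of the 13 was called. The HES5 call was lost without day 12 replicate 1 (0.098), 2 (0.11) or 3 (0.093) or day 10 replicate 1 (0.089) or 2 (0.23), and that of SOX2 without day 12 replicate 1 (0.088), 2 (0.057) or 3 (0.12) or day 10 replicate 1 (0.22) or 3 (0.097). PAX6 had 84, 89.4 and 77.3 CPM on day 12, against 91.9, 93.1 and 93.1 CPM on day 10 and was not called (-0.15 ± 0.058, adjusted p = 0.088), though it was called with TPM (limma, adjusted p = 0.034).

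Markers of motor neuron progenitors were not called. OLIG2 had 41.3, 32.3 and 40.2 CPM on day 12, against 43.1, 56.9 and 38.5 CPM on day 10 (-0.28 ± 0.12, adjusted p = 0.12) and NKX6-1 had 139.6, 119.8 and 123 CPM on day 12, against 103, 147 and 97.5 CPM on day 10 (0.14 ± 0.12, adjusted p = 0.54). In both, and in OLIG1, day 10 replicate 2 was the highest of the 6 libraries. Of the 5 genes of this list 1 fell, SP8 (-0.24 ± 0.08, adjusted p = 0.048). SP8 lost its call without day 12 replicate 1 (0.12), 2 (0.17) or 3 (0.056) or day 10 replicate 1 (0.13) or 2 (0.32). Among 11 intermediate and dorsal progenitor genes the zinc finger factor ZIC2 fell, with 1.84, 2.39 and 1.92 CPM on day 12, against 4.69, 4.1 and 4.55 CPM on day 10 (-1.12 ± 0.17, adjusted p = 1.6e-05), a call that held with each library left out.

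Of 16 proneural and Notch ligand genes, 1 rose and 3 fell, beside 4.86% of all genes higher and 6.25% lower. NEUROG2, the proneural factor of motor neuron progenitors, had 47.1, 39.1 and 45.1 CPM on day 12, against 54.5, 67.8 and 48.3 CPM on day 10 (-0.38 ± 0.11, adjusted p = 0.022). Its relative NEUROG1 had 15.2, 12.9 and 12.8 CPM on day 12, against 18.9, 23.5 and 13.6 CPM on day 10 (-0.45 ± 0.13, adjusted p = 0.024), NHLH2 changed by -0.56 ± 0.16, adjusted p = 0.021, and NEUROG3 rose (0.88 ± 0.26, adjusted p = 0.0198) at about 1 CPM. These calls were lost when 1 library was left out: NEUROG2 without day 12 replicate 2 (0.12) or day 10 replicate 2 (0.19), NEUROG1 without day 12 replicate 2 (0.085) or 3 (0.091) or day 10 replicate 1 (0.081) or 2 (0.23), NHLH2 without day 12 replicate 2 (0.14) or day 10 replicate 1 (0.058) or 2 (0.18), and NEUROG3 without day 12 replicate 1 (0.068) or day 10 replicate 2 (0.054) or 3 (0.11). The Notch ligand DLL1 had 42.3, 34 and 36.7 CPM on day 12, against 37.5, 61.2 and 30.5 CPM on day 10 and was not called (-0.19 ± 0.17, adjusted p = 0.54). Of 7 Notch target genes HES5 alone was called.

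Among the 18 genes of the pan-neuronal list, 2 were called, both higher, a share close to the 11.1% called over all genes. The list's median log2 change was 0.091. NSG2, a neuronal endosome protein, had 59.4, 44.2 and 55.8 CPM on day 12, against 31.2, 39.3 and 26.4 CPM on day 10 (0.72 ± 0.13, adjusted p = 0.00036), and the tau gene MAPT had 122, 86.2 and 117 CPM on day 12, against 86.8, 90.4 and 67 CPM on day 10 (0.41 ± 0.14, adjusted p = 0.048). MAPT lost its call without day 12 replicate 1 (0.22) or 3 (0.15) or day 10 replicate 1 (0.073) or 3 (0.28). TUBB3 (-0.051 ± 0.093, adjusted p = 0.79), SNAP25 (0.086 ± 0.13, adjusted p = 0.75) and STMN2 (0.13 ± 0.17, adjusted p = 0.698) were not called. The STMN2 libraries ran over 719.6, 495 and 761 CPM on day 12 and 606, 724 and 479 CPM on day 10, so its spread within a day was wider than the difference between days.

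Motor neuron identity factors were low, and 1 of 5 was called. None of them was called from the 6 libraries alone. ISL2, a LIM homeobox factor of young motor neurons, fell, with 2.77, 1.21 and 1.86 CPM on day 12, against 5.11, 8.94 and 3.58 CPM on day 10 (-1.57 ± 0.28, adjusted p = 0.00017), a call that held with each library left out. MNX1, the factor HB9 of motor neurons, had 9.86, 6.67 and 9.7 CPM on day 12, against 10.1, 16.5 and 6.84 CPM on day 10 and was not called (-0.34 ± 0.23, adjusted p = 0.39). ISL1 had 6.48, 5.01 and 6.65 CPM on day 12, against 6.47, 9.51 and 5.09 CPM on day 10 and was not called either (-0.21 ± 0.18, adjusted p = 0.52). LHX3 (-0.11 ± 0.18, adjusted p = 0.76) and LHX4 (-0.34 ± 0.18, adjusted p = 0.24) were not called, and day 10 replicate 2 was the highest of the 6 libraries in all 5. The 6 motor neuron markers summed to 66.4 to 87.0 CPM on day 12 and 56.3 to 97.7 on day 10.

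Of 6 cholinergic genes 3 rose and none fell, and none was called from the 6 libraries of days 10 and 12 alone. SLC5A7, the choline transporter of cholinergic terminals, had 41.4, 34.8 and 57.2 CPM on day 12, against 26.6, 24.1 and 24 CPM on day 10 (0.84 ± 0.13, adjusted p = 2.6e-05), a call that held with each library left out. CHAT, which makes acetylcholine, had 8.99, 6.83 and 7.78 CPM on day 12, against 6.47, 6.81 and 4.37 CPM on day 10 (0.42 ± 0.14, adjusted p = 0.042). CHAT lost its call without day 12 replicate 1 (0.24) or 3 (0.0698) or day 10 replicate 3 (0.34). PRPH, peripherin, changed by 0.38 ± 0.12, adjusted p = 0.029. PRPH lost its call without day 12 replicate 1 (0.11) or 3 (0.103) or day 10 replicate 2 (0.12) or 3 (0.088). The vesicular transporter SLC18A3, which lies inside CHAT, was not called (0.20 ± 0.12, adjusted p = 0.32). Of 4 visceral motor neuron genes 3 fell, among them PHOX2A with 0.204, 0.191 and 0.183 CPM on day 12, against 0.572, 0.699 and 0.361 CPM on day 10 (-1.48 ± 0.43, adjusted p = 0.019), and TBX3 (-0.95 ± 0.28, adjusted p = 0.022). PHOX2A lost its call without day 12 replicate 1 (0.06) or 3 (0.055) or day 10 replicate 1 (0.065) or 2 (0.082), and TBX3 without day 12 replicate 1 (0.072) or 3 (0.068) or day 10 replicate 1 (0.0797) or 3 (0.14). MECOM was the member of 6 motor column genes that was called. None of 9 ventral or 8 dorsal interneuron genes was called.

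Genes of electrical maturation rose where they were called. Of 17 ion channel genes 6 rose and none fell, with a median of 0.25, and none was called from the 6 libraries of days 10 and 12 alone. SCN9A, a voltage-gated sodium channel, had 5.54, 4.53 and 6.74 CPM on day 12, against 3.34, 3.19 and 3.58 CPM on day 10 (0.74 ± 0.14, adjusted p = 0.000497). Its call held with each library left out, and those of SCN1A (1.43), SCN2A (0.56), SCN3A (0.58) and CACNA1C (0.35, log2 changes) did not, with adjusted p-values of up to 0.174. SCN2A was lost without day 12 replicate 3 (0.0895), SCN1A without day 12 replicate 1 (0.12) or day 10 replicate 1 (0.12), SCN3A without day 12 replicate 1 (0.096) or 3 (0.15) or day 10 replicate 1 (0.075) or 3 (0.15), and CACNA1C without day 12 replicate 1 (0.17) or day 10 replicate 2 (0.067) or 3 (0.0997). Of 20 transmitter receptor genes 6 rose and none fell. GRIA1, an AMPA receptor subunit, had 88.6, 75.5 and 85.4 CPM on day 12, against 63.4, 70.6 and 63.4 CPM on day 10 (0.34 ± 0.068, adjusted p = 0.00086), and the GABA receptor subunit GABRA2 had 4.49, 3.92 and 5.52 CPM on day 12, against 2.02, 2.61 and 2.71 CPM on day 10 (0.93 ± 0.18, adjusted p = 0.0007). Both calls held with each library left out. The call of CHRM2, a muscarinic receptor (1.14 ± 0.37, adjusted p = 0.032), was lost without day 12 replicate 3 (0.15) or day 10 replicate 1 (0.15) or 2 (0.065). The other 3 were GRIN1, lost without day 12 replicate 1 (0.16) or 3 (0.062) or day 10 replicate 1 (0.14) or 3 (0.102), GRIK1, lost without day 10 replicate 3 (0.065), and GABRA3, lost without day 12 replicate 1 (0.12) or 3 (0.055) or day 10 replicate 1 (0.057) or 3 (0.12). With TPM, 2 of the 6 channel genes and 3 of the 6 receptor genes were called. GRIA2 had 16.1, 10.9 and 18.9 CPM on day 12, against 11.8, 14.3 and 9.31 CPM on day 10 and was not called (0.38 ± 0.17, adjusted p = 0.17).

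The called neuropeptide genes fell, 3 of 10. CALCB had 1.02, 0.893 and 1.16 CPM on day 12, against 2.83, 1.7 and 1.6 CPM on day 10 (-0.99 ± 0.24, adjusted p = 0.0056), GAL, galanin, changed by -1.13 ± 0.34, adjusted p = 0.024, and CALCA, which overlaps CALCB, by -1.21 ± 0.32, adjusted p = 0.0092. Their calls were lost when 1 library was left out, CALCB without day 10 replicate 1 (0.12), GAL without day 12 replicate 1 (0.059) or 2 (0.089) or day 10 replicate 1 (0.23) and CALCA without day 12 replicate 1 (0.052) or 3 (0.055) or day 10 replicate 1 (0.103). Of 23 synaptic vesicle genes 1 rose, VAMP2 (0.22 ± 0.072, adjusted p = 0.042), a share near the 4.86% of all genes. VAMP2 lost its call without day 12 replicate 1 (0.25) or 3 (0.094) or day 10 replicate 1 (0.0599) or 3 (0.32).

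Of 12 factors that mark the birth time of neurons, 5 rose and 1 fell, and with TPM 1 rose, NFIA, and 1 fell, ZFHX3. The rises of NFIA, NFIB and NFIX were also counted in the radial glia list. In the counts NFIA, NFIB, NFIX, BCL11A with 17.5, 17.8 and 18.9 CPM on day 12, against 12.9, 11.8 and 14.4 CPM on day 10 (0.47 ± 0.10, adjusted p = 0.00093) and BCL11B (0.82 ± 0.19, adjusted p = 0.0037) rose, and ZFHX3 fell, with 176, 152 and 164 CPM on day 12, against 200.4, 215 and 217 CPM on day 10 (-0.36 ± 0.078, adjusted p = 0.0021). The last 3 calls held with each library left out, but with TPM BCL11A (limma, adjusted p = 0.062) and BCL11B (limma, adjusted p = 0.05004) were not called. ONECUT2, of early-born neurons, had 76.1, 53.1 and 94.9 CPM on day 12, against 105, 126 and 97.9 CPM on day 10 and was not called (-0.55 ± 0.20, adjusted p = 0.0697), while POU2F2 was not called either (0.14 ± 0.15, adjusted p = 0.62). Of 25 axon guidance genes 3 rose and 6 fell, beside 4.86% of all genes higher and 6.25% lower. From the 6 libraries of days 10 and 12 alone, 1 of the 25 fell and none rose. RELN, reelin, had 55.2, 46.7 and 53.8 CPM on day 12, against 75.7, 93 and 72.9 CPM on day 10 (-0.63 ± 0.11, adjusted p = 0.00034), a call that held with each library left out. The ephrin receptors EPHA5 (0.80 ± 0.20, adjusted p = 0.0064) and EPHA3 (0.70 ± 0.19, adjusted p = 0.013) rose. EPHA5 lost its call without day 10 replicate 3 (0.073), and EPHA3 without day 12 replicate 1 (0.055) or 3 (0.086) or day 10 replicate 1 (0.057) or 3 (0.13). SLIT1, a midline repellent, had 579.8, 505 and 461 CPM on day 12, against 292, 442 and 326 CPM on day 10 (0.55 ± 0.14, adjusted p = 0.0092). SLIT1 lost its call without day 12 replicate 1 (0.0702) or day 10 replicate 1 (0.086) or 3 (0.062). EPHA7, EFNA5, SEMA3D, PLXNA4 and NRP2 were the others that fell. Each lost its call when 1 of several libraries of either day was left out, at adjusted p-values of up to 0.264.

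Among the HOX genes, whose paralog groups are used in order from head to tail, calls went both ways. In groups 1 to 4, 1 of 12 rose and 4 fell. HOXB1 had 46.5, 46.1 and 38.2 CPM on day 12, against 60.5, 50.9 and 57 CPM on day 10 (-0.36 ± 0.077, adjusted p = 0.0014), and HOXB3 had 194, 193 and 194 CPM on day 12, against 173, 180.01 and 171 CPM on day 10 (0.15 ± 0.038, adjusted p = 0.0088), both with no overlap and with calls that held with each library left out. HOXD1 (-0.56 ± 0.17, adjusted p = 0.027), HOXA4 (-0.41 ± 0.14, adjusted p = 0.049) and HOXD4 (-0.25 ± 0.083, adjusted p = 0.049) also fell. HOXD1 lost its call without day 12 replicate 1 (0.064) or 2 (0.13) or day 10 replicate 1 (0.13) or 2 (0.075), HOXA4 without day 12 replicate 1 (0.14), 2 (0.0804) or 3 (0.11) or day 10 replicate 1 (0.35) or 3 (0.203), and HOXD4 without day 12 replicate 1 (0.17), 2 (0.078) or 3 (0.097) or day 10 replicate 1 (0.17) or 2 (0.31). In groups 5 to 8, 5 of 11 rose and 2 fell. HOXC8 had 33.5, 38.3 and 28.7 CPM on day 12, against 22.4, 17.8 and 24.3 CPM on day 10 (0.64 ± 0.14, adjusted p = 0.0027), and HOXA6 had 4.99, 4.02 and 3.81 CPM on day 12, against 2.98, 1.95 and 2.41 CPM on day 10 (0.81 ± 0.16, adjusted p = 0.000803). HOXC5 had 13.3, 11.7 and 16.1 CPM on day 12, against 24.4, 21.6 and 18.7 CPM on day 10 and fell (-0.65 ± 0.15, adjusted p = 0.0031). These calls held with each library left out. HOXB6 rose too (0.42 ± 0.079, adjusted p = 0.00041), and its call held likewise. HOXB5 (0.39 ± 0.10, adjusted p = 0.0067) and HOXB8 (0.20 ± 0.051, adjusted p = 0.0094) also rose and HOXD8 fell (-0.23 ± 0.071, adjusted p = 0.034), with calls lost for HOXB5 without day 10 replicate 3 (0.065), for HOXB8 without day 12 replicate 1 (0.057) or day 10 replicate 3 (0.086) and for HOXD8 without day 12 replicate 1 (0.204) or 2 (0.079) or day 10 replicate 2 (0.087) or 3 (0.15). Of the 16 genes of groups 9 to 13, 12 were too low to test. HOXB9, the only one called of the 4 tested, had 898, 874 and 819.7 CPM on day 12, against 793, 754 and 720.1 CPM on day 10 (0.19 ± 0.053, adjusted p = 0.013). HOXB9 lost its call without day 12 replicate 1 (0.079) or day 10 replicate 3 (0.096), and its change from day 11 to day 13 was -0.07 ± 0.052, adjusted p = 0.47. HOXC9 was not called (0.57 ± 0.25, adjusted p = 0.14). HOXC8 and HOXC9 overlap HOXC6, HOXC5 overlaps HOXC4, HOXA6 overlaps HOXA3, HOXB3 overlaps HOXB4 to HOXB6, and HOXB9 overlaps HOXB7, so reads they share can move their levels.

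Of 11 FGF-ERK feedback genes the phosphatase DUSP6, which FGF signalling induces, fell, with 45.2, 44.8 and 46.4 CPM on day 12, against 65.4, 62.2 and 66.1 CPM on day 10 (-0.51 ± 0.061, adjusted p = 4.7e-07). Of 11 RA genes the binding protein CRABP2 fell, with 117, 104 and 107 CPM on day 12, against 175, 176 and 151 CPM on day 10 (-0.61 ± 0.10, adjusted p = 0.00012), and the RA-induced receptor RARB was not called (0.023 ± 0.089, adjusted p = 0.91). DUSP6 and CRABP2 were each the 1 called gene of 11, with 6.25% of all genes lower. Of 10 Hedgehog genes 3 fell and none rose, although SHH itself rose. The transcription factor GLI2 had 42.4, 41.2 and 37.2 CPM on day 12, against 59.8, 53.8 and 57.8 CPM on day 10 (-0.50 ± 0.069, adjusted p = 4.3e-06), and the co-receptor GAS1 had 5.54, 6.32 and 5.98 CPM on day 12, against 8.48, 7.99 and 7.74 CPM on day 10 (-0.44 ± 0.091, adjusted p = 0.0011). GLI3, the main repressor, had 28.1, 31.8 and 29.9 CPM on day 12, against 43.1, 33.2 and 46.2 CPM on day 10 (-0.45 ± 0.11, adjusted p = 0.00701). GLI3 lost its call without day 12 replicate 1 (0.054) or day 10 replicate 3 (0.089). The target genes GLI1, with 19.3, 21.2 and 16.4 CPM on day 12, against 17.7, 20.7 and 19 CPM on day 10 (-0.013 ± 0.11, adjusted p = 0.96), and PTCH1, with 328, 314 and 304 CPM on day 12, against 262, 345 and 296 CPM on day 10 (0.067 ± 0.086, adjusted p = 0.69), were not called.

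Of 13 BMP and ID genes 2 fell, ID1, with 38.3, 41.9 and 36.9 CPM on day 12, against 62.9, 51.1 and 55.4 CPM on day 10 (-0.53 ± 0.09, adjusted p = 9.1e-05), and ID4 (-0.32 ± 0.082, adjusted p = 0.0074). ID4 lost its call without day 12 replicate 1 (0.085) or day 10 replicate 1 (0.094) or 3 (0.053). Of 10 Wnt feedback genes NKD1, a Wnt inhibitor, rose, with 106, 120.4 and 98.4 CPM on day 12, against 74.8, 68.8 and 86.4 CPM on day 10 (0.50 ± 0.11, adjusted p = 0.0023). These counts, 1 of 10 higher and 2 of 13 lower, stand beside 4.86% of all genes higher and 6.25% lower. The calls of DUSP6, CRABP2, GLI2, GAS1, ID1 and NKD1 held with each library left out, and NKD1 was not called with TPM (limma, adjusted p = 0.201).

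Cell cycle genes were slightly lower where called. Of 18 S phase genes 4 fell, with a median of -0.14, and of 20 G2/M genes 5 fell, with a median of -0.16. Beside them 6.25% of all genes were lower. Called or not, 17 of the 18 and 19 of the 20 had log2 changes below 0. With TPM 1 S phase gene and 2 G2/M genes were called lower. None rose in either list, and none was called in either from the 6 libraries of days 10 and 12 alone. From day 11 to day 13, 2 S phase and 12 G2/M genes fell and none rose, with medians of -0.095 and -0.22. BUB1B, of the spindle checkpoint, had 93.9, 99.8 and 90.5 CPM on day 12, against 106, 111 and 123 CPM on day 10 (-0.26 ± 0.055, adjusted p = 0.0016), and RRM1, which makes deoxyribonucleotides, had 199, 216 and 191 CPM on day 12, against 227, 235 and 245 CPM on day 10 (-0.22 ± 0.043, adjusted p = 0.00057). Their calls held with each library left out, but neither was called with TPM (limma, adjusted p = 0.102 for BUB1B and 0.36 for RRM1). The S phase genes POLA1, TYMS and CCNE1 and the G2/M genes AURKA, CCNA2, CENPF and TPX2 also fell, each with its call lost when 1 library was left out, at adjusted p-values of up to 0.349 and 0.333 in the 2 lists. MKI67 had 402, 401 and 370.03 CPM on day 12, against 401, 447 and 477 CPM on day 10 and was not called (-0.18 ± 0.066, adjusted p = 0.082). None of 10 CDK inhibitors and D cyclins was called.

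Of 24 glycolysis and hypoxia genes 7 fell and 1 rose, EGLN3, while 3 fell and 1 rose with TPM. From the 6 libraries of days 10 and 12 alone, 1 fell and 1 rose. From day 11 to day 13, 2 of the 24 fell and 2 rose. SLC2A1, the glucose transporter GLUT1, had 128, 129.7 and 124 CPM on day 12, against 179.8, 189.5 and 149 CPM on day 10 (-0.44 ± 0.078, adjusted p = 0.0002), and ENO1, enolase, had 933, 1016 and 839.95 CPM on day 12, against 1268, 1048 and 1228 CPM on day 10 (-0.35 ± 0.078, adjusted p = 0.0031). PFKP, a phosphofructokinase, had 44.8, 53.7 and 42.5 CPM on day 12, against 89.1, 53.8 and 81.9 CPM on day 10 (-0.67 ± 0.19, adjusted p = 0.021), with day 10 replicate 2 near day 12 and its call lost without day 12 replicate 1 (0.087) or 3 (0.082) or day 10 replicate 1 (0.14) or 3 (0.103). HK2 also kept its call with each library left out (-0.32 ± 0.05, adjusted p = 2.4e-05), while PGK1, PFKFB3 and P4HA2 lost theirs without 1 or more of day 12 replicates 1 and 3 and day 10 replicates 1 and 3, at adjusted p-values of up to 0.26. Of 9 fatty acid synthesis genes 4 fell, 2 of them with TPM. ACACA, acetyl-CoA carboxylase, had 280.1, 274 and 264 CPM on day 12, against 328, 339.8 and 342 CPM on day 10 (-0.30 ± 0.039, adjusted p = 1.7e-06), and FASN, fatty acid synthase, had 838, 797 and 694 CPM on day 12, against 966, 955 and 916 CPM on day 10 (-0.28 ± 0.063, adjusted p = 0.0025). ELOVL6 (-0.25 ± 0.046, adjusted p = 0.00034) and ACLY (-0.15 ± 0.037, adjusted p = 0.0066) were the others, and ACLY lost its call without day 12 replicate 3 (0.083). From day 11 to day 13 none of the 9 was called. Of 20 sterol synthesis genes INSIG1 rose, with 115, 110.3 and 117 CPM on day 12, against 91.4, 92.9 and 98 CPM on day 10 (0.28 ± 0.052, adjusted p = 0.00033), and none fell. That is a share near the 4.86% of all genes that rose. From day 11 to day 13, 3 of the 20 rose and none fell.

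Of 22 stress response genes 5 fell, SESN2 with 61.8, 64.7 and 59.6 CPM on day 12, against 80.4, 68.6 and 74.4 CPM on day 10 (-0.26 ± 0.066, adjusted p = 0.00702), ATF4, PSAT1, PHGDH and XBP1, and in all 5 day 10 replicate 2 was the lowest day 10 library. Each lost its call when 1 library was left out, at adjusted p-values of up to 0.344, SESN2 without day 10 replicate 1 (0.093). Of 15 immediate early genes 1 rose, NR4A3, and 4 fell, FOSB, IER2, DUSP1 and NPAS4, and each of these calls was lost likewise, at up to 0.172. FOSB had 3.53, 4.72 and 3.11 CPM on day 12, against 7.55, 4.65 and 7.41 CPM on day 10 (-0.79 ± 0.20, adjusted p = 0.0074), lost without day 10 replicate 1 (0.065) or 3 (0.061). Of 14 p53 targets 2 fell, with 6.25% of all genes lower. They were MDM2 (-0.32 ± 0.091, adjusted p = 0.021) and SESN1 (-0.21 ± 0.056, adjusted p = 0.0101). MDM2 lost its call without day 12 replicate 1 (0.15) or 2 (0.055) or day 10 replicate 1 (0.065) or 3 (0.202), and SESN1 without day 12 replicate 1 (0.11) or day 10 replicate 3 (0.073). Of 10 FOXO and glucose sensing genes ARRDC4 rose (0.50 ± 0.13, adjusted p = 0.00802) and SESN1 fell, with ARRDC4 lost without day 10 replicate 1 (0.057). Of 15 circadian genes 1 fell, BHLHE41 (-0.83 ± 0.27, adjusted p = 0.042), a share near the 6.25% of all genes, and its call was lost without day 12 replicate 1 (0.095), 2 (0.0899) or 3 (0.104) or day 10 replicate 1 (0.069) or 3 (0.43).

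The 13 mitochondrially encoded genes all had positive log2 changes, with a median of 0.25, and none was called. Of 40 ribosomal protein genes 38 had negative changes, with a median of -0.067, and 2 were called lower, RPS12 and RPS27A, a share near the 6.25% of all genes. Both calls were lost when 1 library was left out, at adjusted p-values of up to 0.276. Among genes of other cell types, DPPA4 (-0.32 ± 0.06, adjusted p = 0.00041) fell in the pluripotency list, with 51.4, 49 and 51 CPM on day 12, against 63, 60.8 and 65.3 CPM on day 10. SNAI2 fell in the neural crest list (-0.85 ± 0.25, adjusted p = 0.023), MEOX1 fell in the mesoderm list (-0.86 ± 0.29, adjusted p = 0.049), and KDR rose in the endothelium and blood list (0.46 ± 0.16, adjusted p = 0.049). The calls of these last 3 were lost, SNAI2 without day 12 replicate 1 (0.14) or day 10 replicate 1 (0.18), MEOX1 without day 12 replicate 1 (0.27) or 2 (0.073) or day 10 replicate 1 (0.073) or 3 (0.28), and KDR without day 12 replicate 1 (0.055), 2 (0.22) or 3 (0.052) or day 10 replicate 1 (0.16) or 2 (0.22). None of the endoderm or surface epithelium genes tested was called.

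**Figure D5:**
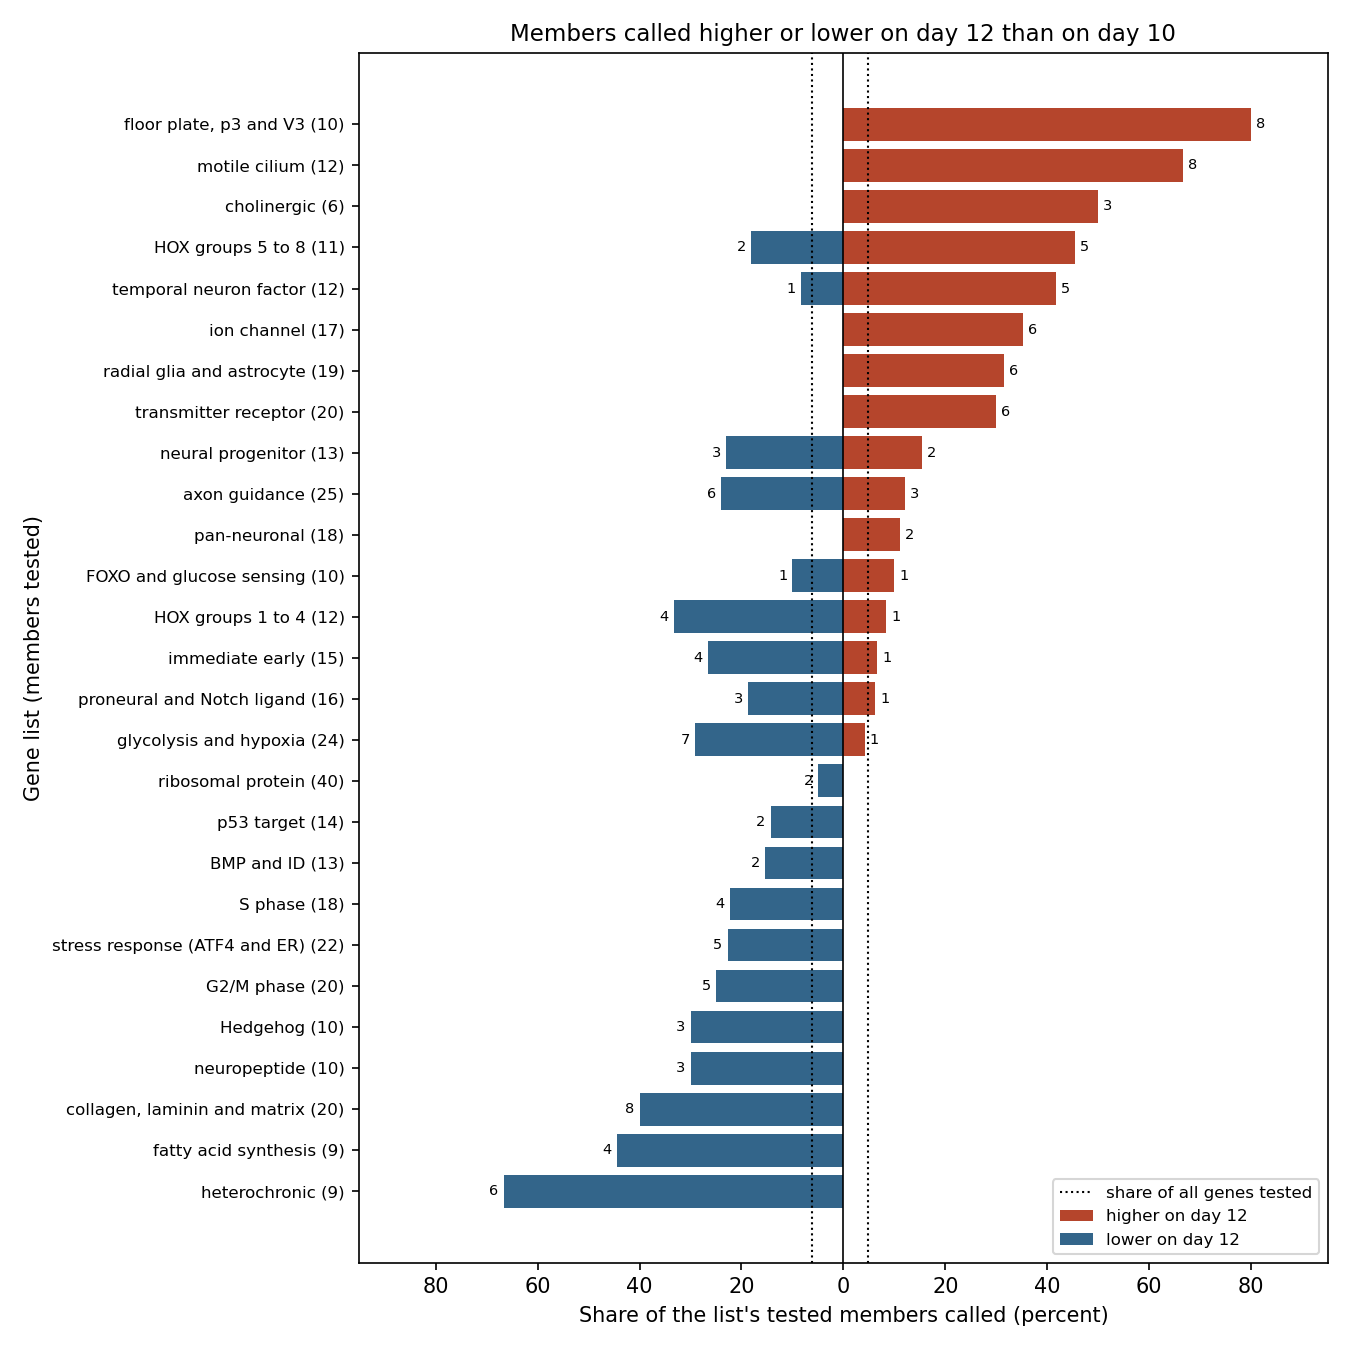
Share of each gene list's tested members (number in brackets) that was called higher (right) or lower (left) on day 12 than on day 10, for lists with at least 5 tested members and at least 2 called; numbers beside the bars count the genes, and dotted lines mark the shares of all genes tested, 4.86% higher and 6.25% lower. The floor plate list (8 of 10) and the motile cilium list (8 of 12) reach furthest to the right, and the heterochronic list (6 of 9) furthest to the left. Lists can share genes, as the radial glia and temporal neuron factor lists share NFIA, NFIB and NFIX. The lists were chosen with earlier results of these data known.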

How the data were processed

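Polyadenylated RNA was sequenced from 45 libraries of 15 days, 3 per day. The submitters' processing notes name bcl2fastq 2.20.0, RSEM and GRCh38. Aligner, annotation and strand setting: not given in the sources used here. The authors deposited 1 table of RSEM expected counts per gene (92.5% of values whole) and 1 of TPM, both covering 58233 genes.

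Expected counts were rounded to whole numbers. Names and positions came from GENCODE release 29 (GRCh38), which holds 57895 of the genes. Genes passing filterByExpr (19436) were fitted by day in 1 model over all 45 libraries (edgeR 4.0.16 with R 4.3.3, TMM factors of 0.925 to 1.061, robust quasi-likelihood, 30 residual degrees of freedom, median biological coefficient of variation 6.09%). Day 12 was set against day 10, and day 13 against day 11, and the difference of the 2 changes was tested in the same fit. P-values were adjusted over all genes tested (Benjamini-Hochberg, called under 0.05). CPM use TMM-scaled library sizes, and depth is the total count per library. Small counts limit genes below about 1 CPM. The steps were tested on simulated counts.

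The gene lists and members were chosen with earlier results of these data known. Named were, among called protein-coding genes, 12 at either end of the range of changes (10 CPM or more on the higher day, days not overlapping), up to 3 called members per list, and a panel of genes named whether called or not. Other list members were named after their values were seen, to complete a list's count, as were TAGLN, ACTA2, MIR100HG, MIR99AHG, LINC00261 and H19. The motif and seed searches were also chosen then. Lists had no test of their own. Some called list members are counted but not reported by name here.

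Alternatives were DESeq2 1.42.0, its size factors in edgeR, no filter, limma 3.58.1 on log2(TPM + 1) (TPM of 1 or more in 3 libraries), the 6 libraries alone, a replicate block, stricter thresholds and leaving out each library. Fold changes on the TPM scale understate those of low genes. The older trended dispersion and the block within the 6 libraries were chosen after seeing the data. Deviations from the day means of same-numbered libraries correlated at 0.031, -0.102 and 0.015, so the numbers were not taken to pair the samples. Promoter and microRNA sequences came from RefSeq (GRCh38.p14).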

Additional observations from a re-analysis of the deposited data

Results flagged for a closer look

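The change from day 10 to day 12 differed from the change from day 11 to day 13 in 2 genes, by a test of the difference itself. HOXB3 had 194, 193 and 194 CPM on day 12, against 173, 180.01 and 171 CPM on day 10, a log2 change of 0.15 ± 0.038, adjusted p = 0.0088. Its mean was 207 ± 5.28 CPM on day 13 and 239.9 ± 5.06 CPM on day 11, a log2 change of -0.21 ± 0.038, adjusted p = 0.00018. The difference between the 2 changes was 0.36 ± 0.054, adjusted p = 0.0016. HOXB4 had 65.5, 68.2 and 65.4 CPM on day 12, against 63.6, 64.3 and 56.4 CPM on day 10 (0.11 ± 0.054, adjusted p = 0.2), and 69.2 ± 2.35 CPM on day 13 against 87 ± 3.11 CPM on day 11 (-0.33 ± 0.053, adjusted p = 3.1e-05). The difference between its 2 changes was 0.44 ± 0.076, adjusted p = 0.0095. The genes overlap in the annotation, so they can share reads. DESeq2 found 5 such genes and limma on TPM 4.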

How the results depend on the processing

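Between day 12 and day 10, DESeq2 (938 higher, 1266 lower), size factors (972, 1136), no filter (672, 923) and the older trended dispersion (837, 1152) gave counts within 1.5 times of 945 and 1214. TPM with limma gave 713 and 513. The 6 libraries alone gave 228 and 74. An adjusted p under 0.01 left 459 and 545, and a 2-fold minimum left 181 and 53. Leaving out 1 library gave 540 to 1126 higher and 594 to 1499 lower.

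The correlation check showed no sign of pairing by replicate number. With 3 libraries per day it cannot exclude pairing. With the replicate block in the fit of all 45 libraries the counts were 998 and 1223. With the replicate block in the 6 libraries alone they were 6 and 1.

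For day 13 against day 11, TPM gave 754 higher and 452 lower, and no filter 407 lower. The difference of the changes gave 5 genes with DESeq2 and 4 with TPM.

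Of 120 named called genes, 58 kept the call in each of the 6 leave-outs, and 80 kept it with TPM. The leave-outs kept the other days in the fit. From the 6 libraries alone, 41 of the 120 kept the call and 79 lost it. With the replicate block in those 6 libraries, 4 kept it. The change of none of these 120 reversed under the settings run. Genes near 1 CPM are limited by depth. By list, the 6 libraries alone called no neuropeptide, visceral motor neuron, stress response, immediate early or p53 target gene. They called 5 floor plate and p3 genes and 6 motile cilium genes higher, and 5 heterochronic genes lower.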
